A study of Mus musculus with 6 samples.

Results

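Chemokines and chemokine receptors were compared between primary colon tumor cells that carry a Pak inhibitor and tumor cells that do not. The genes are those with a symbol of Ccl, Cxcl, Ccr, Cxcr or Ackr followed by a number, together with Ppbp, Pf4, Xcl1, Xcr1, Cx3cl1 and Cx3cr1. This rule took 63 of the 21966 genes in the deposited table, 40 of them ligands and 23 receptors. RNA came from primary colon epithelial cell lines grown in culture from the tumors of mice in which loss of Apc drives colorectal tumors. PID- cells came from CDX2P-NLS-Cre;APC^Δ/+ mice, and PID+ cells from mice that also carried ROSA26-PID. Both groups therefore share a deleted Apc allele and the Cre transgene, which a CDX2 promoter drives in the gut. They differ in the PID, a peptide from the autoinhibitory domain of Pak1 that blocks the Group I Paks, which is made with a GST tag and an eGFP reporter from the Rosa26 locus after Cre has acted. The labels name 3 mice per group, 4, 7 and 26 for PID+ and 1, 2 and 3 for PID-, and call the PID- samples normal and untreated, while the methods describe tumor cells. The study numbers its PID+ lines in the same way but its PID- lines differently, so the PID- samples cannot be matched to those lines by number.

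Reads of the 3 samples of a group were merged by the authors, so each gene has 1 pooled FPKM (fragments of a transcript scaled to its length and to the size of the library) per group, with the confidence interval that CuffDiff gave. No difference has a replicate check, and no test was run. The deposited intervals cover the error model of CuffDiff only and are wide: for genes averaging 10 FPKM or more, the interval typically (median) reached 75.1% of the value to either side in PID+ and 73.9% in PID- cells. The depth is unknown, but a single read added 1.38 times the FPKM in PID+ cells that it added in PID- cells. Changes are log2 ratios of FPKM + 1, PID+ over PID-, which makes changes at low FPKM look smaller than they are. A gene was called at a ratio of at least 3-fold on that scale.

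Chemokines are small secreted proteins that bind G protein-coupled receptors and guide leukocytes along gradients into tissue. In the gut, epithelial cells release ligands that draw neutrophils, lymphocytes and dendritic cells to the mucosa, and colorectal tumors can produce the neutrophil-attracting CXC ligands themselves. Atypical receptors bind chemokines without G protein signaling and remove them from the surroundings.

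The cells were epithelial by their most abundant markers, with keratin 8 (Krt8) at 2745 FPKM in PID+ and 1319 FPKM in PID- cells and Epcam at 401 and 124. As deposited, 9 of 12 epithelial markers were higher in PID+ cells and 3 lower, with a median log2 change of 1.08. Of these 9, Krt19 had an FPKM ratio of 1.19, under the 1.54 of Gapdh, so it is lower in PID+ cells with Gapdh equal. The others of the 9 had ratios above that of Gapdh. Epcam and Cldn7 (FPKM 274 and 79.4) were called higher in PID+ cells, beside 1.04% of all genes, though not with Gapdh equal. The intestinal transcription factor Cdx2 (0.542 and 8.04) and the intestinal cadherin Cdh17 (1.67 and 25.9) were called lower, beside 1.72%. The intervals of Cdh17 did not overlap. The most abundant was keratin 18 (Krt18) in PID+ cells, at 2843 beside 1199 in PID- cells, and keratin 19 (Krt19) in PID- cells, at 2073 beside 2469 in PID+ cells. The 12 markers summed to 9123 FPKM in PID+ and 5009 FPKM in PID- cells. Villin (Vil1), a marker of the brush border, was under 1 in both.

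Chemokine expression was narrow. Of the 63 genes, 17 were listed at 0 in both groups, 29 were above 0 but under an FPKM of 1 in both, and 17 reached 1 in either group, 16 of these being ligands. At an FPKM of 2, the least from which a gene can be called, 12 genes remained. Ppbp was called higher in PID+ cells, 1 of 63 genes beside 1.04% of all 21959 genes used. Ccl2 and Cxcl15 were called lower, 2 of 63 beside 1.72% of all genes. The deposited intervals lay apart for 1 gene that was higher, again Ppbp, beside 0.187% of all genes, and for 0 genes that were lower, beside 0.542%. Counts this small say nothing particular about the chemokines. The same shares of called genes, 1.04% higher and 1.72% lower, apply to every list of genes below. Just under the threshold, a log2 change of 1.58, were Cxcl3 at 1.55 and Cxcl2 at -1.56. Over the 46 genes above 0, 21 were higher and 25 lower, beside 9001 and 8726 over the 17727 of all genes above 0. The median log2 change was -0.0072, beside 0.0024 over those 17727. Of the 46, 29 were under 1 in both groups, where FPKM + 1 holds changes near 0. When FPKM was scaled to equal Gapdh, all genes split into 76 called higher and 662 lower, in place of 229 and 377, and the median of genes averaging 5 FPKM or more moved by -0.58.

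**Figure D1:**
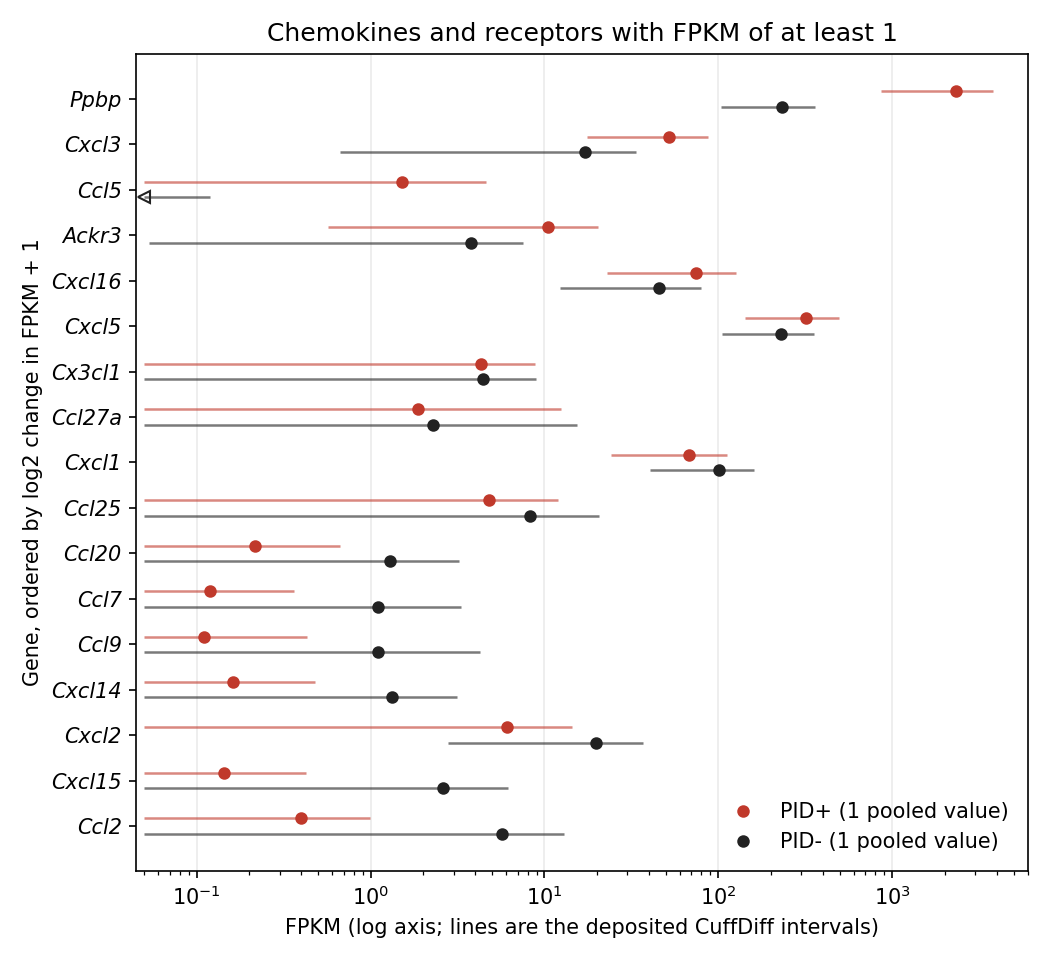
FPKM on a log axis of the 17 chemokines and receptors that reached 1 in either group, ordered by log2 change in FPKM + 1, with 1 pooled value per gene in PID+ (red) and PID- (black) cells. Lines are the deposited CuffDiff intervals, drawn from 0.05 where they reach lower, and the open arrowhead marks Ccl5 in PID- cells at 0.0307. The intervals of Ppbp lie apart, from 862 to 3779 and from 103 to 358, and those of the other 16 genes overlap.

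The 63 genes summed to 2869 FPKM in PID+ and 680.2 FPKM in PID- cells, and neutrophil-attracting CXC ligands made up most of it, with 2767 and 602. These ligands carry the ELR motif ahead of their first cysteines and most of them act through Cxcr2. Ppbp (ENSMUSG00000029372.6), the precursor of the platelet chemokine NAP-2, accounted for 80.9% of the sum in PID+ and 33.9% in PID- cells. Without it the sums were 549 and 449.

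Ppbp had 2321 FPKM in PID+ cells, with an interval from 862 to 3779, and 231 FPKM in PID- cells, with an interval from 103 to 358. PID+ cells were higher, and the intervals did not overlap. The level in PID+ cells was 10.1 times that in PID- cells by FPKM, for a log2 change of 3.32, and 2.7 with Gapdh equal. By FPKM, Ppbp ranked 22 among all genes in PID+ and 300 in PID- cells. None of its stretches of 50 bases occurs in a transcript of another gene.

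Since Ppbp is best known from platelets, the markers of megakaryocytes and platelets were read beside it. Their summed FPKM over 15 genes was 2.98 in PID+ against 3.42 in PID- cells, with 0 genes called in either direction. The most abundant was the integrin Itga2b, at 1.19 in PID+ and 2.08 in PID- cells. As deposited, 8 of the 12 markers above 0 were higher in PID+ cells, the direction of Ppbp, with a median of 0.0098 on the log2 scale. Among them were Selp (0.432 and 0.0267) and Itgb3 (0.640 and 0.280), picked on seeing their values, while Vwf and Gp1ba had FPKM ratios under the 1.54 of Gapdh and are lower in PID+ cells with Gapdh equal. The collagen receptor Gp6, the platelet tubulin Tubb1 and Treml1 were listed at 0 in both groups. Pf4, the neighbor of Ppbp and likewise a platelet chemokine, had 0.947 FPKM in PID+ and 0.372 FPKM in PID- cells.

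Cxcl5, an epithelial neutrophil attractant, was as abundant as Ppbp in PID- cells by FPKM. Its FPKM was 319 in PID+ cells, from 143 to 496, and 230.25 in PID- cells, from 106 to 355. The intervals overlapped widely, and the log2 change of 0.47 became -0.15 with Gapdh equal, so the direction depends on the scaling.

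Cxcl1, Cxcl2 and Cxcl3, closely related ligands that tumor and stromal cells make under inflammatory stimuli, did not share a direction. Cxcl3 had an FPKM of 52.3 in PID+ cells, from 17.6 to 87.0, and of 17.2 in PID- cells, from 0.669 to 33.7. Cxcl2 had 6.07 in PID+ cells, from 0 to 14.5, and 19.8 in PID- cells, from 2.80 to 36.9. Cxcl1 had 68.2 in PID+ cells, from 24.3 to 112, and 101 in PID- cells, from 40.4 to 161. Cxcl3 was thus higher in PID+ cells and Cxcl1 and Cxcl2 were higher in PID- cells. The intervals of each gene overlapped. The scalings tried lowered the PID+ values or left them nearly unchanged, so they could not reverse Cxcl1 or Cxcl2. Cxcl3, which they could reverse, stayed higher in PID+ cells under each. The log2 changes were 1.55 for Cxcl3, -0.56 for Cxcl1 and -1.56 for Cxcl2. With Gapdh equal they were 0.94, -1.17 and -2.08, and Cxcl2 then passed the threshold, as it did with equal total FPKM (-1.65). Cxcl2 and Cxcl3 share 3.28% and 6.31% of their stretches of 50 bases with each other, and reads from these stretches cannot be assigned to either gene.

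Cxcl15, a ligand best known from the lung, completes the group. Its FPKM was 0.143 in PID+ cells, from 0 to 0.424, and 2.61 in PID- cells, from 0 to 6.16. It was low in both groups and lower in PID+ cells, with overlapping intervals and a log2 change of -1.66, called lower. These levels correspond to an estimated 19 and 477 reads.

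These 6 ligands and Pf4 lie side by side on the plus strand of chromosome 5 of GRCm38, from 90759360 to 90905938, in the order Cxcl5, Ppbp, Pf4, Cxcl3, Cxcl15, Cxcl1 and Cxcl2. The 7 genes span 147 kb. In this order the direction switched between Cxcl3 and Cxcl15: PID+ cells were higher for Cxcl5 (except with Gapdh equal), Ppbp, Pf4 and Cxcl3, and PID- cells for Cxcl15, Cxcl1 and Cxcl2. The median log2 change over chromosome 5 was 0.0074. On the proximal side, Rassf6, a Ras association domain gene, had 25.8 FPKM in PID+ and 27.2 FPKM in PID- cells. On the distal side, the folate enzyme Mthfd2l had 11.3 and 11.6. Past it lie Epgn, under 1 in both groups, and the growth factors Ereg and Areg of the EGF family. Ereg had 7.96 FPKM in PID+ and 29.0 FPKM in PID- cells, and Areg 107 and 163, with overlapping intervals for both. Levels of the flanking genes closest to the cluster were thus nearly equal between the groups, while Ereg was called lower in PID+ cells, with a log2 change of -1.74, and Areg had a log2 change of -0.60.

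**Figure D2:**
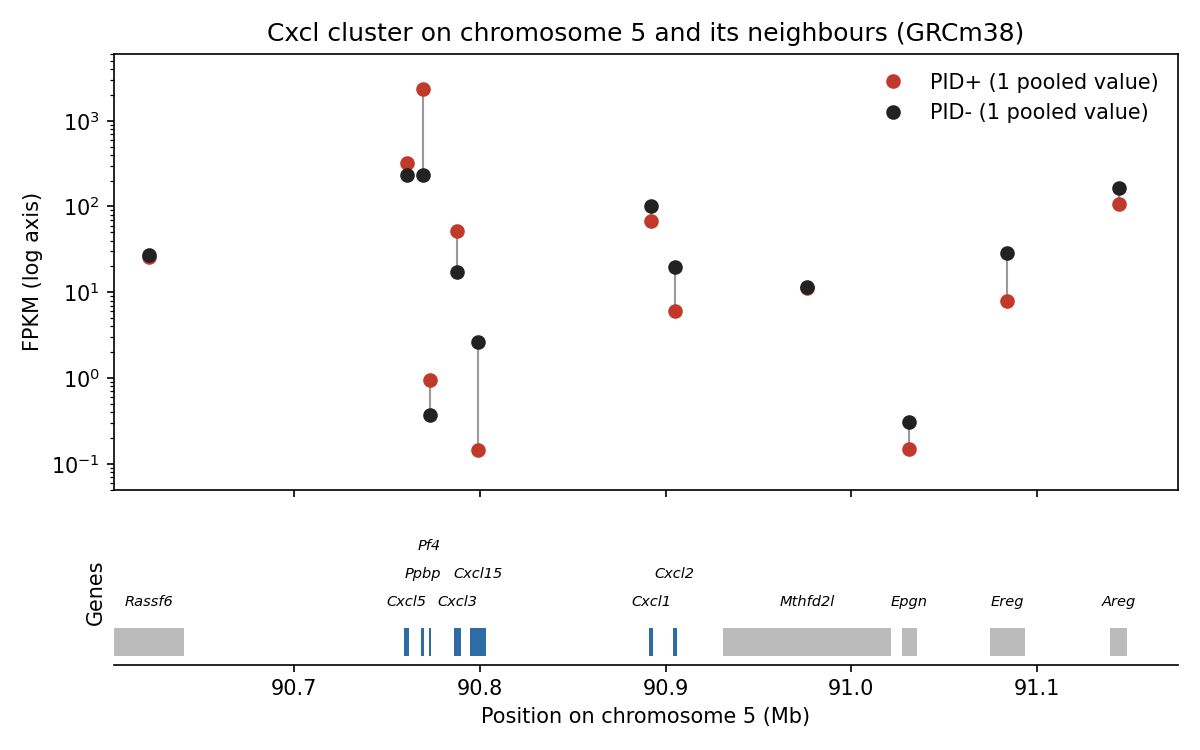
FPKM on a log axis in PID+ (red) and PID- (black) cells, 1 pooled value per gene and group, of the 7 chemokine genes on chromosome 5 and their neighbors, above a map of the genes to scale in Mb of GRCm38 (chemokines in blue, other genes in gray). Gray lines join the values of a gene and are not errors. Ppbp stands out at 2321 and 231, and Cxcl1 and Cxcl2, at the distal end, are lower in PID+ cells.

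Promoter sequences are shown for the members of the cluster with the largest log2 changes, since members of the cluster with opposite directions carry the same motif. They come from a table of RefSeq promoters (GRCm38.p6), in which 48 of the 63 genes have an entry. Cxcl5 is not in this table. The 250 bases upstream of the start were searched on both strands for the κB motif (GGGAA directly followed by TTTCC), the TATA motif TATAAA, the AP-1 motif TGANTCA and the interferon response motif (GAAA, any 2 bases, GAAA). The κB motif was found in 28 of 32851 promoters, or 0.0852%, among them those of Cxcl1, Cxcl2, Cxcl3 and the receptor Ccr3. TATAAA was found in 12.4% of all promoters and in those of 16 chemokine genes, including Ppbp, Cxcl3 and Cxcl15. Pf4 has an entry but is not shown, with a log2 change of 0.51 beside -0.56 for Cxcl1. Its promoter held neither the κB nor the TATA motif. TGANTCA was found in 6.75% and in 7 chemokine genes, including Ppbp and Cxcl10. The interferon response motif was found in 2.98% and in 3 chemokine genes, Ccl19, Cxcl10 and Cxcl14. The sequences below run 5′ to 3′ on the plus strand and end before the Gencode or the RefSeq start, whichever lies upstream, at chr5:90768398-90768517 for Ppbp, chr5:90785981-90786100 for Cxcl3, chr5:90794414-90794533 for Cxcl15, chr5:90891125-90891240 for Cxcl1 and chr5:90903779-90903870 for Cxcl2. Capitals mark the κB and TATA motifs. The κB motif begins at -73 in Cxcl3, -71 in Cxcl1 and -97 in Cxcl2 relative to the RefSeq start, which lies downstream of the end of the printed sequence for Cxcl1 and Cxcl2, and TATAAA at -30 and -8 in Ppbp, -30 in Cxcl3 and -27 in Cxcl15. These matches are descriptions of the letters and not of bound factors.
Ppbp: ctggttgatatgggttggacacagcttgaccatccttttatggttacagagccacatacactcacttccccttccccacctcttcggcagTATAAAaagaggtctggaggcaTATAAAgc
Cxcl3: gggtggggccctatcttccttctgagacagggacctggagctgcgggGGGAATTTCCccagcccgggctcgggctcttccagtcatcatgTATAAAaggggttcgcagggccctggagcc
Cxcl15: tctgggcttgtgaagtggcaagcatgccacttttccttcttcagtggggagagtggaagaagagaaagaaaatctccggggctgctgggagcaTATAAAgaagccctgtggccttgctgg
Cxcl1: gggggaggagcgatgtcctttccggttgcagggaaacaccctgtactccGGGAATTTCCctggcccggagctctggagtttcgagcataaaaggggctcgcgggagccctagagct
Cxcl2: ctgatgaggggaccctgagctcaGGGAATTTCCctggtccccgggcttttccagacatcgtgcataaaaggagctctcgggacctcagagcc

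Among ligands typical of epithelium or anchored in the membrane, 6 of 9 reached an FPKM of 1 and 0 were called in either direction. Cxcl16, a transmembrane ligand that also acts as a scavenger receptor, was the most abundant, at 74.3 in PID+ cells, from 23.0 to 126, and 45.8 in PID- cells, from 12.3 to 79.2. The intervals overlapped, and the log2 change of 0.69 shrank to 0.07 with Gapdh equal. Cxcl16 overlaps Zmynd15 on the other strand and shares 20.0% of its stretches of 50 bases with it, so its level is less certain. Cx3cl1 (fractalkine), the other membrane-bound ligand, had 4.34 FPKM in PID+ and 4.43 FPKM in PID- cells, nearly equal, with overlapping intervals.

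Ccl25, which brings lymphocytes to the small intestine, had an FPKM of 4.79 in PID+ cells, from 0 to 12.0, and 8.24 in PID- cells, from 0 to 20.7. PID- cells were higher with overlapping intervals, a log2 change of -0.67, and the gene overlaps Elavl1 on the other strand. Ccl27a, a skin-homing ligand, had 1.87 and 2.29. However, 53.3% of its stretches of 50 bases occur in Ccl27b and other copies, and reads from these stretches cannot be assigned. The log2 change of Ccl27a was -0.20, and 0.11 after the median of its chromosome was subtracted. Ccl20, which attracts dendritic cells and lymphocytes through Ccr6 to the follicle-associated epithelium, had 0.216 FPKM in PID+ and 1.29 FPKM in PID- cells. Cxcl14, a ligand of normal epithelia, had 0.161 and 1.33. Both were lower in PID+ cells, with overlapping intervals and log2 changes of -0.91 and -1.0. Cxcl17 (0.812 and 0.148) and Ccl28 (0.0247 and 0.0359), mucosal chemokines, stayed under 1, and Ccl27b was listed at 0.

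The monocyte-attracting CC ligands Ccl2, Ccl7, Ccl12 and Ccl8 lie on chromosome 11, and together they had 0.514 FPKM in PID+ and 6.87 FPKM in PID- cells. Ccl2 (ENSMUSG00000035385.5, from 82035571 to 82037453 on the plus strand), the main ligand of Ccr2, had an FPKM of 0.396 in PID+ cells, from 0 to 0.988, and 5.74 in PID- cells, from 0 to 13. PID+ cells were low, and the intervals overlapped because the lower bound in PID- cells is 0. The log2 change was -2.27, called lower, and the levels correspond to an estimated 24.6 and 492 reads. Ccl7, next to Ccl2, had 0.119 FPKM in PID+ and 1.10 FPKM in PID- cells, with overlapping intervals and a log2 change of -0.91 from an estimated 4.98 and 63.8 reads. Ccl8 had 0 and 0.0327, about 1 read, and Ccl12 was listed at 0 in both groups. Ccl2 overlaps the gene model Gm17268 on the other strand, which was listed at 0 in both groups.

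Fibroblasts are a known source of Ccl2 and Ccl7, and fibroblast markers moved in the same direction. Of 10 such markers, 9 were lower in PID+ cells and Lum was listed at 0 in both groups. Col1a2, Col3a1, Col1a1 and Dcn were called lower, beside 1.72% of all genes, and 0 were called higher, beside 1.04%. The intervals of Col1a2 did not overlap. The study describes its PID- lines as resembling fibroblasts in shape, and the source of the fibroblast markers was not tested. They summed to 3.14 FPKM in PID+ and 36.3 FPKM in PID- cells, and the most abundant was Col1a2 in PID- cells (0.0654 in PID+ and 11.9 in PID-) and Col1a1 in PID+ cells (2.32 and 11.9). In these bulk samples, fewer cells of a type and less RNA per cell cannot be told apart, and the part of the fibroblast markers in the result for Ccl2 was not tested.

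Of the macrophage inflammatory CC ligands, farther along chromosome 11, Ccl5 and Ccl9 reached an FPKM of 1, in opposite groups. Ccl5 (RANTES), which attracts T cells and macrophages, had an FPKM of 1.52 in PID+ cells, from 0 to 4.64, and 0.0307 in PID- cells, from 0 to 0.120. It was higher in PID+ cells with overlapping intervals, but its estimated 1.39 reads in PID- cells are too few for a fold. Ccl9, a ligand of Ccr1, had 0.11 FPKM in PID+ and 1.10 FPKM in PID- cells, for a log2 change of -0.92 with overlapping intervals. The adjacent Ccl6 had 0.370 and 0.164, Ccl4 had 0 and 0.0224, and Ccl3 was listed at 0.

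The remaining ligands were near or at 0. Of the 6 eosinophil and type 2 ligands, Ccl11 (eotaxin) had 0.0163 FPKM in PID+ and 0 FPKM in PID- cells, and Ccl1, Ccl17, Ccl22, Ccl24 and Ccl26 were listed at 0. The lymphoid ligands Ccl19, Ccl21a, Ccl21b and Xcl1, which position T cells and dendritic cells, were listed at 0 in both groups. The interferon-induced ligands of Cxcr3 stayed under 1, with Cxcl10 at 0.434 FPKM in PID+ and 0.322 FPKM in PID- cells, Cxcl9 at 0.0054 and 0.0078, and Cxcl11 at 0 and 0.0076. Among homeostatic ligands, Cxcl12, which signals through Cxcr4, had 0.337 and 0.0798, and the B cell attractant Cxcl13 had 0.0296 and 0.0430.

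Receptors were scarcely expressed. Summed FPKM over the 23 receptors was 12.1 in PID+ and 6.12 in PID- cells, and 0 were called. Ackr3 (ENSMUSG00000044337.5, chromosome 1 from 90203980 to 90216751), an atypical receptor that takes up Cxcl12, was the receptor that reached an FPKM of 1. It had an FPKM of 10.5 in PID+ cells, from 0.571 to 20.4, and 3.78 in PID- cells, from 0.0529 to 7.51. PID+ cells were higher, the intervals overlapped, and the log2 change was 1.27, or 0.71 with Gapdh equal. Of the other 22, 5 were listed at 0 (Ccr2, Ccr8, Ccr1l1, Cxcr1 and Ackr1) and 17 stayed under 1 in both groups.

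Receptors for the expressed ligands were among those under 1. Cxcr2, which binds the ELR ligands, had 0.184 FPKM in PID+ and 0.0964 FPKM in PID- cells. Ccr6, the receptor of Ccl20, had 0 and 0.0103, and Cxcr6, the receptor of Cxcl16, 0.0514 and 0.0932. Ccr9, the receptor of Ccl25, had 0.0132 and 0.0145. Of the Cxcl12 receptors, Cxcr4 thus stood far under Ackr3 by FPKM, at 0.0618 and 0.0148. Ackr4, a scavenger of Ccl19, Ccl21 and Ccl25, had 0.742 and 0.632 but overlaps Acad11. Ccr7, the receptor of Ccl19 and Ccl21, picked on seeing its values, had 0.0652 in PID+ and 0.835 in PID- cells, an estimated 8.01 and 141 reads, with overlapping intervals. The others included Ccr1 (0.111 and 0.273), Ccr10 (0.123 and 0.214), Cxcr3 (0.113 and 0.0412), and Ccr3, Ccr4, Cxcr5, Cx3cr1, Xcr1 and Ackr2, whose highest value was 0.0308.

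Signaling genes downstream of chemokine receptors were present. Of 28 such genes, 0 were called higher and 2 lower, beside 1.04% and 1.72% of all genes, with a median log2 change of -0.10 over the 27 above 0, beside 0.0024 over the 17727 of all genes above 0. Arrb1, an arrestin that desensitizes receptors, had 4.95 FPKM in PID+ and 18.2 FPKM in PID- cells, for a log2 change of -1.69. Jak2, a kinase, had 23.6 and 73.7, a log2 change of -1.60. The intervals of both overlapped. Gnai1, an inhibitory G protein α subunit picked on seeing its values, was just under the threshold at 3.30 FPKM in PID+ and 0.464 FPKM in PID- cells, with overlapping intervals and a log2 change of 1.55. Rac1, a GTPase that moves the actin cytoskeleton and activates Paks, was the most abundant, at 618 in PID+ and 460.2 in PID- cells. Rgs1, a leukocyte regulator of G proteins, was listed at 0. By FPKM, Rac1 and the G protein subunit Gnai2 (201 and 269) were thus abundant in both groups, while the leukocyte-restricted Rac2 (0.0718 and 0.0112) was near 0.

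Among regulators of chemokine transcription, 0 passed the threshold, beside 1.04% of all genes higher and 1.72% lower. The median log2 change over all genes above 0 was 0.0024. In the NF-κB list of 18 factors and targets, 0 were called in either direction and the median log2 change was -0.14. Its most abundant genes were Chuk, an IκB kinase, in PID+ cells (FPKM 48.4 and 40.8) and Ikbkg, the regulatory subunit of that kinase, in PID- cells (22.5 and 65.2). In the interferon list of 12, 0 were called and the median was -0.07. The interferon γ receptor chain Ifngr1 was the most abundant, at 156 in PID+ and 174 in PID- cells.

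Of 10 proteases that shed or trim chemokines, 0 were called higher and 1 lower, beside 1.04% and 1.72% of all genes. The median log2 change was -0.32 over the 8 above 0, beside 0.0024 over the 17727 of all genes above 0. Matrilysin (Mmp7), an epithelial protease, had an FPKM of 234 in PID+ cells, from 105 to 363, and 993 in PID- cells, from 435 to 1551. PID- cells were high, the intervals did not overlap, and the log2 change was -2.08. Adam10 and Adam17, sheddases of Cxcl16 and Cx3cl1, had 55.0 and 29.3 in PID+ and 89.5 and 31.6 in PID- cells, and the intervals of each overlapped. The neutrophil proteases Elane and Ctsg were listed at 0.

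Leukocyte markers were near 0. Of 17 markers, Cd68, which is not restricted to leukocytes, made up most of the sums of 23.3 FPKM in PID+ and 17.7 FPKM in PID- cells, with 21.8 and 16.8. The pan-leukocyte gene Ptprc had 0.0264 and 0.0081, the T cell genes Cd3e and Cd3g and the NK cell receptor Ncr1 were listed at 0, and 0 of the 17 were called. Among 10 mast cell and basophil markers, Mcpt8 was called higher, beside 1.04% of all genes. Mcpt8 had 82.5 FPKM in PID+ and 9.60 FPKM in PID- cells, with intervals that did not overlap. It made up nearly all of the sums of 83.6 and 10.6, while the defining markers Cpa3, Ms4a2, Fcer1a and Tpsb2 were listed at 0. Of 10 endothelial markers, summing to 16.5 and 18.9, the receptor Flt1 was called lower (1.02 and 8.67), beside 1.72% of all genes. The intervals of Flt1 did not overlap. Egfl7 was the most abundant (11.4 and 8.82), and Cldn5 was listed at 0. As deposited, 8 of the 9 endothelial markers above 0 were nevertheless higher in PID+ cells (median log2 0.11), among them the receptor Kdr (3.33 and 1.01), picked on seeing its values. Of these, Egfl7, Esam, Tek and Pecam1 had FPKM ratios under the 1.54 of Gapdh, so they are lower in PID+ cells with Gapdh equal. Of 8 smooth muscle and pericyte markers, summing to 13.3 and 16.6, 0 were called, and the most abundant was Mcam in PID+ cells (7.46 and 3.53) and Acta2 in PID- cells (4.39 and 9.76). The part of these markers in the chemokine levels was not tested.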

How the data were processed

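Poly(A) RNA of 6 samples, 3 per group, was sequenced. According to the submitters' processing notes and the methods, the authors removed adapters with cutadapt, aligned reads to GRCm38.p3 with TopHat and Bowtie2, merged the 3 sets of reads of a condition, which the methods call sequencing runs and the labels name as mice, and deposited 1 FPKM per gene and condition from CuffDiff with its interval. CuffDiff normalized to compatible hits, and how it scaled the libraries to each other is not given in the sources used here. Rows called treated were read as PID+ and untreated as PID-. Of 21966 genes, 7 without an OK status were left out. Symbols were found for 21734. Positions came from Gencode (GRCm38) and promoters from RefSeq.

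Log2 ratios of FPKM + 1 were calculated, and calls required 3-fold. Values of a read were estimated from genes with 1 transcript, as FPKM times the length less 190 bases, the best of 16 corrections: 91.3% of 714 values in PID+ and 91.0% of 679 in PID- cells lay within 0.1 of a whole read, against 20% without steps. Read numbers of genes with several transcripts are approximate. Folds were not given at 3 reads or fewer. Genes named are members that reached an FPKM of 1 in either group, and in each list the called genes, the most abundant and the defining ones at 0. Others were chosen after their values were seen. Values of some genes are not reported here. The members and lists were chosen with earlier results of these data known. Calculations were tested on simulated data. Alternatives were another pseudocount, scaling, filter or threshold. Scripts ran in Python 3.11.15 with pandas 2.3.3, numpy 2.4.6, matplotlib 3.10.9 and scipy 1.17.1.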

Additional observations from a re-analysis of the deposited data

How the results depend on the processing

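Of the 17 genes that reached an FPKM of 1, 14 kept the sign of their log2 change under each of the 7 alternatives that applied to them. The exceptions were Cxcl5 with Gapdh equal (-0.15), and Ccl27a (0.11) and Cx3cl1 (0.10) with the chromosome median subtracted. Most of these alternatives say little about a sign. Another pseudocount or a filter cannot change it, and equal upper quartiles shifted log2 ratios of FPKM by only 0.0006. Only equal total FPKM, equal Gapdh and the chromosome median could move a sign. With a pseudocount of 0.1, 4 chemokine genes were called higher in place of 1 (Ccl5, Cxcl17, Cxcl3 and Ppbp) and 8 lower in place of 2 (Ccl2, Ccl20, Ccl7, Ccl9, Ccr7, Cxcl14, Cxcl15 and Cxcl2), beside 2.83% and 3.62% of all genes. At 2-fold, 4 were called higher and 4 lower, beside 3.31% and 3.77%. With a mean FPKM of at least 5, 8 genes were left and 0 were called lower. The median log2 change of these more abundant genes was 0.58, beside -0.0012 over all genes under the same filter. It replaced the median of -0.0072, which includes the genes near 0. With the chromosome median subtracted, the median was 0.08, so its sign depends on the processing. By deposited intervals 0 were lower.

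In the receptor signaling list, 1 gene was called higher with a pseudocount of 0.1 and 1 at 2-fold, and 0 were lower by intervals. In the NF-κB list, 1 was lower with equal total FPKM, 1 with equal Gapdh and 1 at 2-fold. The shares of all genes called lower under these settings were 1.85%, 3.01% and 3.77%. In the interferon list, 1 was higher with a pseudocount of 0.1 and 2 at 2-fold, and 2 were lower with equal Gapdh and 2 at 2-fold. In the protease list, 2 were lower with a pseudocount of 0.1 and 2 at 2-fold. The cause was not tested. No paired analysis was possible because the table holds 1 pooled value per gene and condition. For the same reason leaving out each replicate and the replicate block were not run. The wide intervals limit what can be told of any gene.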
